A study of Oryza sativa with 6 samples.

Results

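A group of 162 probe sets had its highest value in 1 WT sample only. They were chosen from 57258 probe sets of the rice genome array by a single rule, that the log2 value of WT replicate 2 lay at least 1.0 above the highest of the other 5 arrays, which on this scale is at least 2-fold. They make up 0.283% of the probe sets. The rule used the values themselves, so the height of WT replicate 2 in these genes is a description and was given no test. Of the members, 119 match 1 gene in the array's annotation, 4 match several and 39 match none, and the 119 stand for 112 of the 17905 genes measured. With a name other than a locus number, 33 probe sets of 29 genes remain.

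The samples were shoot tips of the rice variety Hitomebore, 3 arrays from Osrdr1, a mutant with the retrotransposon Tos17 inserted in the RNA-dependent RNA polymerase gene OsRDR1, and 3 from its Sibling WT, both derived from 1 heterozygous insertion line. Seeds of both genotypes germinated in water in darkness (28 °C, 2 days), and seedlings were harvested after a further 48 h or so in greenhouse light (26 °C, 16 h light and 8 h dark). Each array held labelled cRNA from 6 µg of total RNA. The labels call the arrays biological replicates without saying how many seedlings each held, so the spread between them may be in part technical. No probe set was matched to OsRDR1 by name, so the genotype labels were not checked on that gene.

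Plants short of oxygen lose much of the ATP that respiration gives, and make it by glycolysis instead. Pyruvate decarboxylase and alcohol dehydrogenase then turn pyruvate into ethanol and return the NAD+ that glycolysis needs, while phytoglobins, the plant haemoglobins, remove nitric oxide. Rice grains are known to germinate under water with this metabolism. Germinating grains also break down their starch and protein reserves, through alpha-amylases and proteinases made around the endosperm, and turn stored fat into sugar through the glyoxylate cycle. Abscisic acid, the hormone of seed maturation and drought, switches on LEA proteins and dehydrins, which protect cells that lose water.

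The working name of these genes was a low-oxygen program, which describes only a part of them. The 4 genes used as its markers are all members, namely the pyruvate decarboxylase PDC1, the alcohol dehydrogenase Adh2, and the phytoglobins NSHB1 and NSHB2. The name and its markers were chosen with these values known, so their membership supports nothing. The other pyruvate decarboxylase genes measured were not members. Among the 5 named genes with the largest margins, PDC1 came second, after the alpha-amylase AMY1A and before the dehydrins RAB21 and RAB16B and the membrane protein PM19L, which are linked to abscisic acid. Of 68 genes in 10 lists tied to low oxygen and sugar supply, alpha-amylases included, 7 were members (10.3%, against 0.626% of all genes) and 61 were not. These lists hold the 4 markers, and their name patterns were corrected after the values were seen. The share of 10.3% therefore supports nothing. The members are called by their rule, as genes high in WT replicate 2 alone, and by their leading genes.

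**Figure D1:**
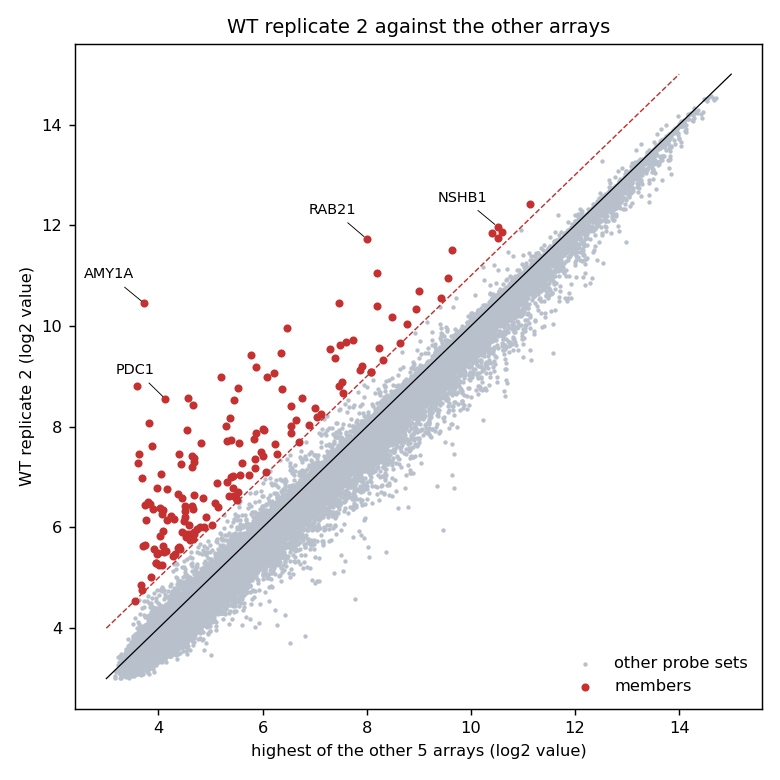
Each point is 1 probe set, with the highest log2 value among the other 5 arrays on the x axis and the log2 value of WT replicate 2 on the y axis. The solid line marks equal values and the dashed line the margin of 1.0. The 162 members (red) lie above the dashed line, at values of WT replicate 2 from 4.55 to 12.43, with AMY1A farthest from it.

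The control probe sets of WT replicate 2 lay within or near the range of the other arrays. The added bacterial control bioB was 7.82 there and 8.00 to 9.09 on the others. The difference between the 3′ and 5′ ends of actin, which grows as RNA breaks down, was 2.24 on the log2 scale in WT replicate 2 and 2.23 to 2.51 on the others. Array medians ran from 4.87 to 4.96. Over all probe sets, WT replicate 2 was most like WT replicate 1 (a Pearson's r of 0.996, a description over probe sets that depend on each other) and least like WT replicate 3 (r = 0.991). Ribosomal RNA signals were low in both WT replicate 2 (18S, 10.34) and WT replicate 1 (9.93) and reached 13.22 in WT replicate 3. Whether any of these has a part in the members' values was not tested.

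No other array had a group of this size. By the same rule, the arrays of Osrdr1 had 3, 1 and 2 probe sets (0.00524%, 0.00175% and 0.00349% of all), WT replicate 1 had 2 (0.00349%) and WT replicate 3 had 16 (0.0279%). Their largest margin was 1.65, and none reached 2, whereas 53 members did. In the opposite direction, WT replicate 2 lay at least 1.0 below the lowest other array in 3 probe sets, against 28 for WT replicate 3.

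**Figure D2:**
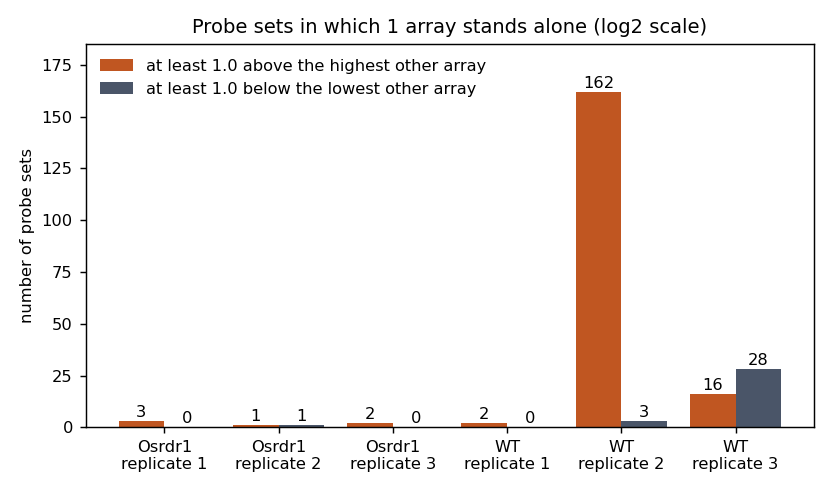
Bars give, for each array, the number of probe sets in which that array lay at least 1.0 (log2) above the highest or below the lowest of the other 5. WT replicate 2 has 162 high and 3 low, and every other array has 16 high or fewer.

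The margin had a median of 1.65 and ran up to 6.72. It was at least 1.5 in 89 members, at least 2 in 53, at least 3 in 20 and at least 4 in 5. At the threshold, the last members inside were LOC4329459 (9.09 in WT replicate 2 against at most 8.09), LOC4336949 (4.55 against at most 3.55) and the hexokinase HXK4/HXK8 (a margin of 1.01), and the first outside were LOC4334736 (a margin of 0.99), LOC4348924 (0.99) and LOC4324968 (0.98). In WT replicate 2 the members had a median log2 value of 7.27, from 4.55 to 12.43. In 78 members all other arrays lay below 4.91, the median of all values (48.1%, near the 46.2% of all probe sets). In 59 members all 6 arrays lay above that median. The members therefore include both genes that were dim on 5 arrays and genes that were bright on all of them. Detection calls were not used here, so a margin over a dim array is a difference of RMA values and no measured fold.

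Of 4 fermentation genes listed, 2 were members (against 0.626% of all genes), PDC1 and Adh2, with unequal margins. Both are markers of the working name, so this count supports nothing. Adh2 was the only alcohol dehydrogenase in the list. PDC1, which makes acetaldehyde from pyruvate, was 3.74, 4.01 and 4.09 in Osrdr1 and 4.13, 8.55 and 4.13 in WT replicates 1, 2 and 3, a margin of 4.42. Its other 5 values were all below the median of all values. Adh2, which reduces acetaldehyde to ethanol, was 6.23, 7.07 and 7.23 in Osrdr1 and 7.40, 9.36 and 6.26 in WT, a margin of 1.96. Here the other arrays of the genotypes overlapped, and 1 array of each lay near 6.2. The other pyruvate decarboxylase genes did not share the pattern. The gene LOC4332519 was bright on all arrays, at 12.32 in WT replicate 2 and 11.87 to 12.25 elsewhere on its brighter probe set. The gene LOC4344382 was 5.49 in WT replicate 2 and 5.49 to 5.85 elsewhere.

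The phytoglobins were bright everywhere and had smaller margins. NSHB1 was 10.20, 10.51 and 10.40 in Osrdr1 and 10.29, 11.97 and 9.47 in WT, a margin of 1.46. Its other probe sets, also members, had margins of 1.30 and 1.23. NSHB2 was 10.38, 10.39 and 10.40 in Osrdr1 and 9.96, 11.85 and 9.27 in WT, a margin of 1.45. In both genes WT replicate 3 was the lowest array, so that the highest and the lowest value both came from WT.

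Genes that bring sugar into glycolysis held few members, and so did all genes measured (0.626%). A count of 0 in a short list therefore says nothing particular about its genes. Sucrose synthases, which open the way from sucrose, had 0 of 6 genes as members, with margins from -0.77 (OsSUS5) to 0.40 (OsSUS3). Invertases, which split sucrose, had 0 of 7 (at most -0.03), and the OsTPP genes, named for trehalose phosphate phosphatase, had 0 of 8 (at most 0.15). Of 7 hexokinase genes, which phosphorylate glucose, 1 was a member (14.3%). This gene, HXK4/HXK8 (LOC4326776), was 7.70 in WT replicate 2, 6.69 in WT replicate 1 and 5.77 to 5.97 on the other 4 arrays, so it was higher on both of these WT arrays than on the rest. Of 10 genes for aldolase, glyceraldehyde-3-phosphate dehydrogenase, enolase and pyruvate phosphate dikinase, 1 was a member (10%). It was PPDK2, a dikinase gene, at 6.62 against 4.93 to 5.46. A second gene of the dikinase, cpdk (LOC4338750), was also highest in WT replicate 2 but fell short of the rule, at 10.91 against 9.55 to 10.26.

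A list of signalling genes held no member either. Of 17 genes for ethylene synthesis and perception, SnRK1 kinases, MYBS factors and the factor EREBP1, 0 were members and the largest margin was 0.09 (OSK24, a SnRK1 kinase). Since only 0.626% of all genes were members, this count of 0 says nothing particular about signalling genes. ACO1, an ethylene-forming oxidase, had the smallest margin of the low-oxygen lists, -1.10, with 9.11 in WT replicate 2, 8.79 to 8.88 on the other WT arrays and 9.91 to 10.21 in Osrdr1. The respiratory oxidase AOX1 was 7.79 in WT replicate 2, against 7.19 to 8.22. Over the 10 lists, 9 of 95 probe sets were members and their median margin was -0.10, against -0.18 over all probe sets. Of heat shock proteins and factors, 0 of 45 genes were members, which is also near the share of 0.626% over all genes. HSP16.9A, a small heat shock protein, had a margin of 0.94, at 6.49 against 5.17 to 5.55.

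**Figure D3:**
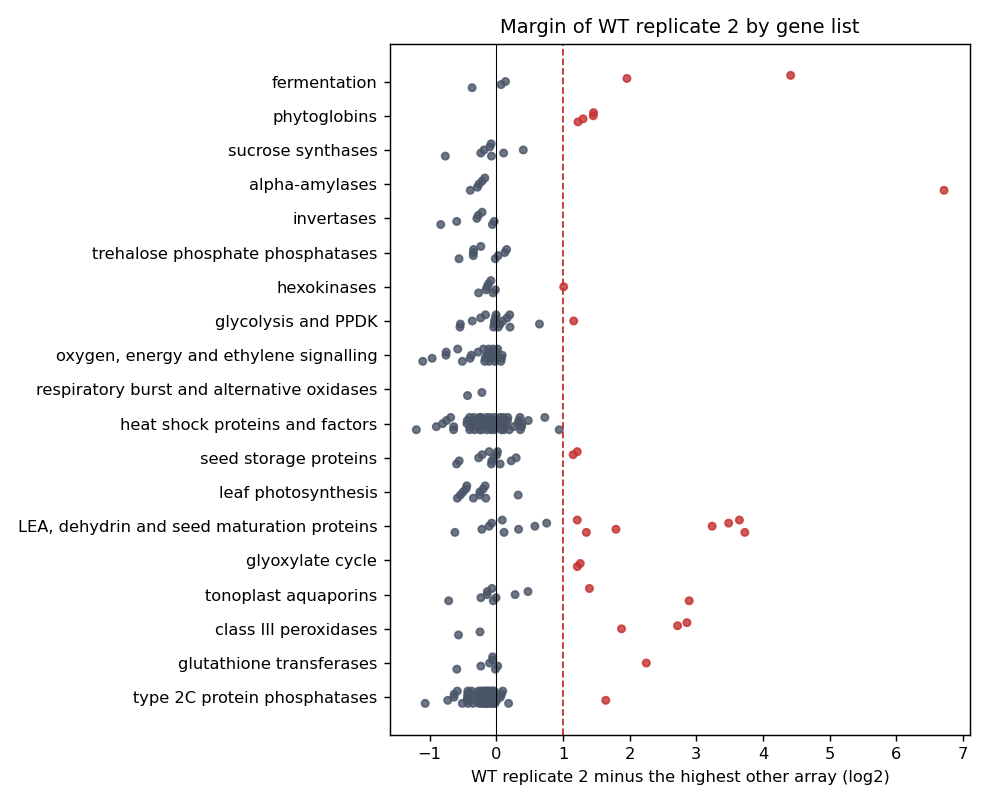
Each point is 1 probe set of a gene list, and the x axis gives WT replicate 2 minus the highest other array on the log2 scale. Points at or past the dashed line at 1.0 (red) are members. All lists were corrected or added after the values were seen. Phytoglobins and glyoxylate cycle genes lie wholly past it, sucrose synthases, invertases and the signalling genes wholly before it, and alpha-amylases have 1 point at 6.72 and the rest below 0.

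The gene with the largest margin was AMY1A, an alpha-amylase of the germinating grain that breaks down starch. It was 3.33, 3.55 and 3.58 in Osrdr1 and 3.73, 10.45 and 3.60 in WT, a margin of 6.72. On 5 arrays AMY1A was below the median of all values, and on WT replicate 2 it was among the 17 members with values of at least 10. The other 4 alpha-amylase genes measured did not follow, with margins from -0.39 to -0.17 and values of 3.67 to 4.22 in WT replicate 2. REP1, a cysteine proteinase known from germinating rice grains, was 4.89, 5.32 and 4.92 in Osrdr1 and 5.07, 7.72 and 5.06 in WT, a margin of 2.40.

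Both genes that define the glyoxylate cycle were members, against 0.626% of all genes. Their list was added after the members were known, so this count supports nothing. ICL, isocitrate lyase, was 4.25, 4.12 and 4.15 in Osrdr1 and 4.28, 5.58 and 4.37 in WT, a margin of 1.21. MS, malate synthase, was brighter, with 7.49, 7.26 and 6.98 in Osrdr1 and 7.88, 9.13 and 7.14 in WT, a margin of 1.26. Apart from WT replicate 2, the genotypes overlapped in MS, whereas in ICL the other WT arrays lay just above all Osrdr1 arrays.

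Genes of dehydrins, LEA proteins and seed maturation were a further named group. Of 12 such genes measured, 6 were members, against 0.626% of all genes. This list was drawn up after the members were known, and its count supports nothing. RAB21, a dehydrin induced by abscisic acid, was 8.00, 6.87 and 7.33 in Osrdr1 and 7.48, 11.73 and 6.06 in WT, a margin of 3.73, and its second probe set had 3.49. RAB21 was thus above the median of all values on every array. RAB16B was 5.52, 5.49 and 5.79 in Osrdr1 and 5.60, 9.43 and 5.14 in WT, a margin of 3.65. RAB16C was 5.61 in WT replicate 2 and 4.08 to 4.39 elsewhere, a margin of 1.21. RAB16D, another gene of this family, had a margin of 0.33.

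PM19L, a membrane protein of the abscisic acid response, was 5.53, 5.02 and 5.21 in Osrdr1 and 5.40, 8.76 and 4.79 in WT, a margin of 3.24. Osem, the Em-type LEA protein of embryos, was 4.31, 4.32 and 4.64 in Osrdr1 and 4.43, 6.44 and 4.64 in WT, a margin of 1.79. MFT2, of the MOTHER OF FT family that acts in seed germination, was 5.30 in WT replicate 2 and 3.53 to 3.95 elsewhere. OsPP2C45, a protein phosphatase of type 2C, was 6.13 against 3.98 to 4.49, and the other 54 genes of its family were not members. Among the genes of the list that were not members, LEA19 had the largest margin (0.76), at 11.47 in WT replicate 2. OsVP1, the seed transcription factor, was 5.15 against 4.83 to 5.06, and Dhn1 was 9.16 against 8.54 to 9.05 on its brightest probe set.

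**Figure D4:**
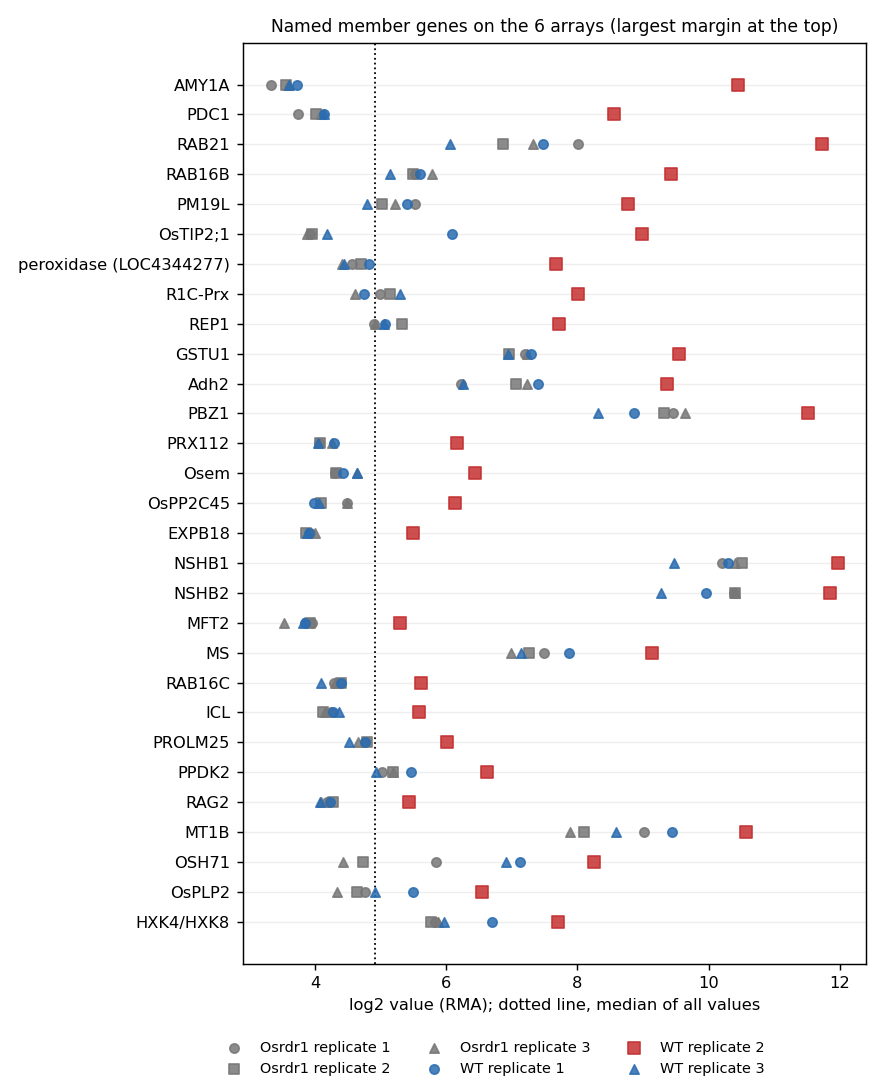
The 29 named member genes in order of margin, with the log2 value of each array on the x axis (the probe set with the largest margin for each gene). Red squares are WT replicate 2, blue symbols the other WT arrays, grey symbols Osrdr1, and the dotted line the median of all values, 4.91. OsTIP2;1, OSH71 and HXK4/HXK8 are among the genes in which WT replicate 1 also stands to the right of Osrdr1.

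The remaining named members served defence, redox balance, transport and growth. Class III peroxidases, which oxidise phenolic compounds in the cell wall, had 3 members among the 4 genes matched by name, in a list added after the members were known (0.626% of all genes were members). The peroxidase of LOC4344277 was 7.68 in WT replicate 2 and 4.41 to 4.82 elsewhere, R1C-Prx was 8.01 against 4.62 to 5.29, and PRX112 was 6.17 against 4.05 to 4.29. GSTU1, a glutathione transferase, was 9.55 against 6.94 to 7.30, and the other 5 genes of its list were not members (margins of at most 0.02). PBZ1, a pathogenesis-related protein induced by probenazole, was 9.45, 9.32 and 9.63 in Osrdr1 and 8.85, 11.51 and 8.31 in WT. Without WT replicate 2, the WT arrays of PBZ1 lay below all Osrdr1 arrays, and with it the genotypes overlapped.

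OsTIP2;1, an aquaporin of the vacuolar membrane, was 3.92, 3.96 and 3.88 in Osrdr1 and 6.09, 8.98 and 4.18 in WT, a margin of 2.89. It differed from most members in that the 3 WT arrays were spread over the whole range and lay above every Osrdr1 array. The other 7 genes of the aquaporin list were not members, with margins of at most 0.48. OSH71, a KNOX homeobox gene of the shoot meristem, was 5.84, 4.73 and 4.42 in Osrdr1 and 7.13, 8.26 and 6.91 in WT. All WT arrays of OSH71 lay above all Osrdr1 arrays, and WT replicate 2 was the highest of them by 1.13. MT1B, a metallothionein, was 10.56 in WT replicate 2, 9.43 and 8.58 on the other WT arrays and 7.88 to 9.02 in Osrdr1. OsPLP2, a patatin-like protein, was 6.55 against 4.33 to 5.50, and EXPB18, a beta-expansin that loosens cell walls, was 5.49 against 3.86 to 3.99.

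Markers of other tissues were also looked at. Of 9 genes for seed storage proteins, 2 were members (22.2%, against 0.626% of all genes), PROLM25, a prolamin, at 6.01 against 4.51 to 4.80, and RAG2, at 5.43 against 4.08 to 4.28. Each was a member through 1 probe set only. The other probe set of PROLM25 was 3.90 against 3.32 to 3.67, and those of RAG2 had margins of at most 0.01. The name patterns of this list were corrected after the values were seen, so the share supports nothing. The mean log2 value over the 15 probe sets of the list was 4.51 in WT replicate 2 and 4.22 to 4.30 on the others. The glutelins were not members. Their largest margin was 0.30, in GLUB-5, at 4.22 against 3.73 to 3.92. GLUA-1 was 3.92 in WT replicate 2 (a margin of 0.06) and GLUB-4 was 4.01 (-0.07), and the brightest glutelin probe set, of GLUA-2, was 6.67 against 6.26 to 7.27. Of 7 leaf photosynthesis genes, 0 were members, with a mean of 9.78 in WT replicate 2, 9.61 and 9.68 on the other WT arrays and 9.94 to 10.03 in Osrdr1. In these arrays more RNA per cell and more cells of a type cannot be told apart, and the part of other tissue in the members' values was not tested.

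Most of the members with the largest margins carry only a locus number. After AMY1A came LOC4345287, which was 8.80 in WT replicate 2 and 3.41 to 3.59 elsewhere, a margin of 5.21. LOC4330830 was 8.07 against 3.30 to 3.81, LOC4331301 was 8.57 against 3.83 to 4.56 and LOC4346728 was 7.46 against 3.48 to 3.63. LOC4332760 (8.42 against 4.29 to 4.67), LOC107277424 (7.63 against 3.64 to 3.88) and a probe set with no gene (8.99 against 4.75 to 5.20) complete the 10 largest margins together with AMY1A, PDC1 and RAB21. Of these 10, all but RAB21 were at or below 5.20 on each of the other 5 arrays.

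Not every probe set of a member gene followed. Of the member genes, 21 were read by more than 1 probe set, 4 of them had only member probe sets, and 20 probe sets of member genes were no members. The second probe set of PM19L was 3.74 in WT replicate 2 and 3.72 to 3.85 elsewhere. The second probe set of OsPP2C45 was much brighter than the member, at 10.98 against 10.81 to 11.01, and that of PRX112 was 7.99 against 7.67 to 8.24. The other 3 probe sets of RAG2 had margins from -0.26 to 0.01. For these genes the margin rests on 1 of the probe sets, whereas RAB21, NSHB1 and OsTIP2;1 had only member probe sets.

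Some members lay close together in the gene order. Of 112 member genes, 33 (29.5%) had another member among the 5 nearest measured genes on either side, against 5.21% of the 17791 other measured genes placed. The 33 member genes made up 13 runs of 2 to 4 members, which could have other measured genes between them. On chromosome 11, RAB16C, RAB16B and RAB21 were neighbours, and on chromosome 2 AMY1A lay beside LOC4330830. On chromosome 7, the peroxidase of LOC4344277 and PRX112 lay with LOC4344266 and LOC4344276, and R1C-Prx with LOC4344046 and LOC4344051. Chromosome 10 held 4 genes in 1 run (LOC4348769, LOC4348771, LOC4348782 and LOC4348784). Neighbours of 1 family can be near copies whose transcripts bind the same probes, so their values may not be separate measurements. Probe sets ending in _s_at, which the array design gives to sequences shared by several transcripts, were 15.4% of the members and 4.94% of all probe sets. All 12 chromosomes held members, from 0.340% of the measured genes on chromosome 1 to 1.02% on chromosome 7.

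WT replicate 1 came second most often. It was the highest of the other 5 arrays in 67 members (41.4%), against 23.0% of all probe sets, and WT replicate 3 was the lowest of them in 48 (29.6%), against 25.7%. In 75 members (46.3%) WT replicate 1 exceeded all Osrdr1 arrays, against 29.2% of all probe sets. For WT replicate 3 the share was 28.4%, against 34.5%. Both lay above all Osrdr1 arrays in 34 members (21.0%, against 13.1%) and below them in 11 (6.79%, against 13.0%). Among these 5 arrays the members were more variable than other probe sets, with a median range of 0.51 against 0.36. These shares are a description, since the rule used the highest of these arrays.

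The genotypes were also compared without WT replicate 2, although the rule had used the highest of the other 5 arrays as well. The comparison was made by limma over all 57258 probe sets, with p-values adjusted by the Benjamini-Hochberg method. It called 159 probe sets higher in Osrdr1 (0.278%) and 22 lower (0.0384%), and 0 members in either direction. At such low shares of calls, a count of 0 says nothing particular about the members. At an unadjusted p under 0.05, 7 members were higher in Osrdr1 and 22 lower (13.6%), against 7.36% and 5.11% of all probe sets. The smallest adjusted p of a member from limma was 0.062. With a trend and robust variances in limma, 5 members were called, 2 higher and 3 lower in Osrdr1. Over all probe sets this setting called 974 higher and 298 lower, so calls rose in general. The count of 0 members thus depends on this setting. The median log2 difference of the members, Osrdr1 minus WT, was -0.06, against -0.02 over all probe sets. AMY1A differed by -0.18 ± 0.11 (SE; limma, adjusted p = 0.617), PDC1 by -0.18 ± 0.12 (adjusted p = 0.635) and Adh2 by 0.01 ± 0.41 (adjusted p = 0.993). NSHB2 differed by 0.77 ± 0.20 (adjusted p = 0.180) and OSH71 by -2.02 ± 0.40 (adjusted p = 0.111), so neither passed the threshold with 3 and 2 arrays.

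With all 6 arrays, the contrast held the array that chose the members, and its counts are given only as a description. It called 901 probe sets higher in Osrdr1 (1.57%) and 290 lower (0.506%). At an unadjusted p under 0.05 it held 0 members higher, against 8.16% of all probe sets, and 18 lower (11.1% of members, against 6.14%). At the adjusted threshold 1 member was called, OSH71, which differed by -2.43 ± 0.45 (Osrdr1 minus WT, SE; limma, adjusted p = 0.0457). AMY1A, whose WT mean was 5.93 ± 3.92 (SD, n = 3) against 3.49 ± 0.14 in Osrdr1, differed by -2.44 ± 1.67 (adjusted p = 0.607). The call of OSH71 was lost, to 0 member calls, without any 1 of Osrdr1 replicates 1, 2 and 3 or WT replicates 1 and 2. Calls over all probe sets fell in these fits too, so the loss was not particular to OSH71. They fell to 0 without Osrdr1 replicate 1 or 3, and to 1 higher and 0 lower without WT replicate 1. Without Osrdr1 replicate 2 they were 140 higher and 21 lower, and without WT replicate 2 159 and 22.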

How the data were processed

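Expression was measured on 6 Affymetrix rice arrays, 3 of Osrdr1 and 3 of WT. The authors deposited log2 values, made per the labels with RMA in Affymetrix Expression Console (background correction, quantile normalization and summary of probes per probe set). These values were used as deposited. The 123 control probe sets were left out, and no filter on dim probe sets was set. The number of arrays limits the precision.

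Probe sets were named through the array annotation and, by gene identifier, a RefSeq table of rice genes (ASM3414082v1), whose synonyms supplied most names. Its coordinates served only for gene order. Named were all members with a gene name, the 10 largest margins, list members, the extremes of the low-oxygen lists and the probe sets nearest the threshold. Some other list genes were named after their values were seen.

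The members and lists were chosen with earlier results of these data known. Of 19 lists, 13 had their name patterns corrected after the values were seen, and 6 (LEA and dehydrin, glyoxylate, aquaporin, peroxidase, glutathione transferase and type 2C phosphatase genes) were added then. The window of 5 genes for neighbours was also set then.

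Genotypes were compared with limma 3.58.1 in R 4.3.3 (lmFit, eBayes, genotype as the only term), at a Benjamini-Hochberg adjusted p under 0.05, once with and once without WT replicate 2. Tested on simulated data in which 200 of the 57258 probe sets differed, the comparison without WT replicate 2 recovered 47% of changes of 1 and 77% of changes of 2 (log2). Other steps used Python 3.11.15, numpy 2.4.6, pandas 2.3.3 and matplotlib 3.10.9. Alternatives changed the threshold, scaling, filter, variance model, pairing and arrays included.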

Additional observations from a re-analysis of the deposited data

How the results depend on the processing

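The number of members depended mainly on the threshold of the rule, with 208 at 0.8, 89 at 1.5 and 53 at 2.0. It was 154 with arrays centred on their medians, 163 after a repeated quantile normalization (160 shared with the 162), 159 among brighter probe sets, 125 without _x_at and _s_at probe sets and 196 against the other WT arrays only. Leaving out 1 of the other 5 arrays gave 164 to 211, the most without WT replicate 1. Replicate numbers did not pair the samples: deviations of samples with the same number correlated at 0.14, -0.15 and -0.27. With the replicate block, limma called 0 members on all 6 arrays in place of 1 (24 at an unadjusted p under 0.05, all lower in Osrdr1). Without WT replicate 2 it called 0 (13 higher and 17 lower at an unadjusted p under 0.05), as in the fit without the block. Both fits with the block called 0 of all 57258 probe sets, so these counts of 0 say nothing particular about the members. No share over all probe sets is given for the unadjusted counts with the block, which are a description only. Leaving out 1 array from the 6 gave 0 to 1 called members. Over all probe sets these fits called from 0 (without Osrdr1 replicate 1 or 3) to 801 higher and 419 lower (without WT replicate 3). Without WT replicate 2, 2 members were called after a repeated quantile normalization and 2 among brighter probe sets, in place of 0. With a trend and robust variances 5 were called (2 higher and 3 lower in Osrdr1). Over all probe sets these settings in turn called 289 higher and 92 lower, 374 and 64 (of 28566), and 974 and 298. The main fit called 159 and 22. Leaving out a further Osrdr1 array gave 0 members, and 0 of all 57258 probe sets, which says nothing particular about the members. The cause of these differences was not tested. The number of arrays, 3 against 2 without WT replicate 2, limits the precision of the genotype comparison.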

Other observations

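In the opposite direction, WT replicate 2 lay at least 1.0 below every other array in 3 probe sets, of which 2 read repressors of jasmonate signalling. JAZ13 was 7.24, 7.78 and 7.06 in Osrdr1 and 6.18, 4.59 and 7.51 in WT, and JAZ10 was 10.07, 10.66 and 10.32 in Osrdr1 and 9.66, 8.62 and 9.98 in WT. The third, LOC4331849, was 6.78 in WT replicate 2 and 8.33 to 9.67 elsewhere. In all 3, WT replicate 1 was the lowest of the other arrays. The largest margin of any array other than WT replicate 2 was that of LOC4335417, which was 6.53 in Osrdr1 replicate 2 and 3.71 to 4.89 elsewhere.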
